A study of Homo sapiens with 2 samples.

Results

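Members of the BCL2 family and the inhibitors of apoptosis were examined in RNA-seq libraries of TFK1 cells, an established human cholangiocarcinoma cell line, with and without knockdown of MBD2. The 10 genes were chosen by symbol, with earlier results of these libraries known, from the 56638 genes of the deposited tables, and each had 1 row. Since the difference between these same libraries was in view when the genes were chosen, their values are given as a description. They comprised 7 survival genes (BCL2A1, BCL2L1, MCL1, BIRC2, BIRC3, CFLAR and XIAP) and 3 death genes (BCL2L11, BBC3 and PMAIP1). The libraries were shMBD2, from cells labelled as carrying a knockdown of MBD2, a reader of methylated DNA, and shNC, from cells labelled as the negative control. Neither received a further treatment, and there was 1 library per group. In the study, shRNAs were delivered by lentivirus from the plko.1 vector and the infected cells were selected with puromycin or G-418, so that both groups are selected cell populations. Which of these drugs was used for each group is not stated. The labels do not say which of the study's MBD2 shRNAs the shMBD2 library carried.

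Apoptosis through mitochondria is set by the balance inside the BCL2 family. BH3-only proteins such as BCL2L11 (BIM), BBC3 (PUMA) and PMAIP1 (NOXA) bind and neutralise the survival proteins BCL2L1 (BCL-xL), MCL1 and BCL2A1 (BFL-1), or activate BAX and BAK1, which open the outer mitochondrial membrane. Downstream, XIAP binds and blocks caspases directly. BIRC2 (cIAP1) and BIRC3 (cIAP2) are ubiquitin ligases of TNF receptor complexes, and CFLAR (c-FLIP) keeps caspase-8 from being activated at death receptors. BCL2A1, BIRC3 and CFLAR are known as genes that NF-kB can induce, and BBC3 and PMAIP1 as genes that p53 can induce.

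The counts summed to 14728814 in shMBD2 and 14467406 in shNC. MBD2 itself had 365 counts in shMBD2 and 1013 in shNC, or 15.6 and 44.6 TPM (a level scaled to gene length and to the library's total), which is a log2FC of -1.48 (interval -1.66 to -1.31). Here log2FC is shMBD2 over shNC on normalized counts, and each interval is a 95% exact counting interval. Because each group has 1 library, no difference has a replicate check, no p-value is given, and the intervals cover counting error only. All 7 biliary epithelial markers examined had counts in both libraries, from 70 for KRT19 in shNC to 62047 for KRT8 in shNC. The 6 leukocyte markers summed to 3 counts in shMBD2 and 6 in shNC, with CD3E, CD52 and LYZ at 0 in both. The 3 fibroblast markers summed to 2 and 8 counts, and the 3 endothelial markers to 0 and 1. In RNA from whole cultures, fewer cells that express a gene and less RNA per cell cannot be told apart.

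A pair of survival genes, BCL2A1 and BIRC3, stood apart from the other 8 of the 10 genes, and both were higher after MBD2 knockdown. The other 8 genes differed by at most 1.28-fold. All 10 genes passed the limit for comparison, a sum of 10 or more counts. A log2FC above 1 was found for 2 of the 10 genes and a log2FC below -1 for 0, against 5.48% and 5.07% of the 17545 genes compared. The median log2FC was 0.21 over the 10 genes and -0.0082 over all genes compared. Of the 10917 genes whose higher count was 100 or more, a set that includes all 10 members, 1.62% had a log2FC above 1. BCL2A1 entered this set only through its count in shMBD2.

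**Figure D1:**
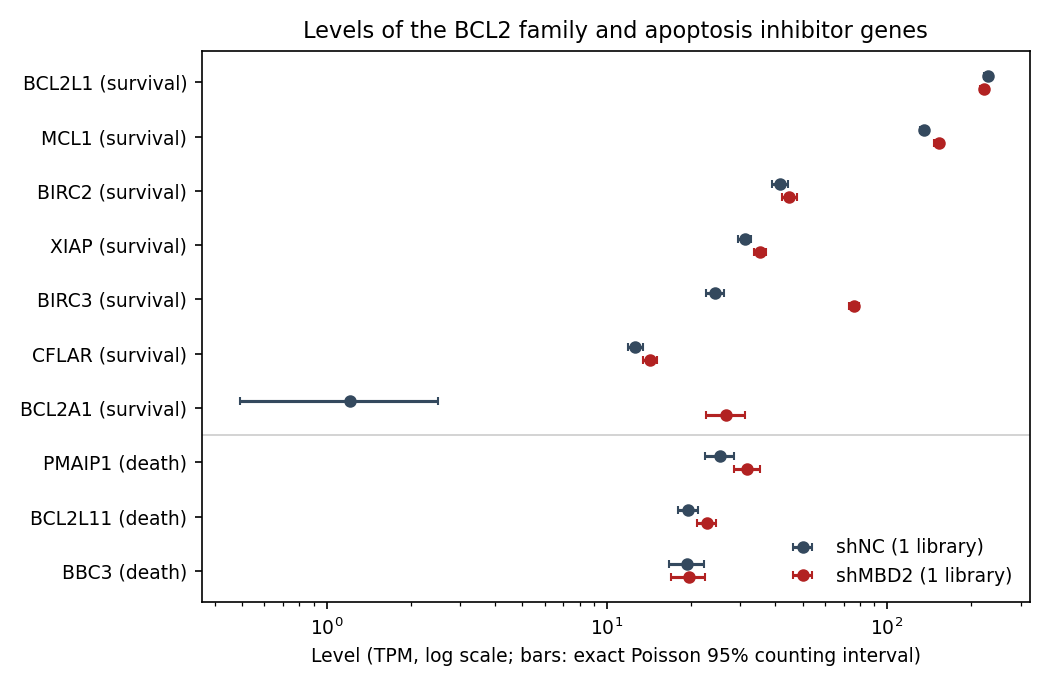
Level of each gene in TPM on a log axis, with 1 point per library and bars for the exact Poisson 95% counting interval. BCL2A1 moves from 1.22 to 26.6 TPM and BIRC3 from 24.3 to 76.5 TPM, while the other 8 genes have points that lie close together.

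BCL2A1, a survival protein best known from white blood cells, had 157 counts in shMBD2 and 7 in shNC. In levels this was 26.6 TPM (counting interval 22.6 to 31.1) against 1.22 TPM (0.489 to 2.51), and these intervals lie far apart. Its log2FC was 4.38 (interval 3.40 to 5.82), and the ratio of the normalized counts was 22.3 (10.6 to 56.4). The width of this interval follows from the 7 counts in shNC. Of all genes compared, BCL2A1 ranked 46 from the highest log2FC, and 10 in the set with a higher count of 100 or more. It is in that set only through its 157 counts in shMBD2, so the rank of 10 is no separate support for its difference. In shMBD2, where BCL2A1 had 157 counts, 5 of the 6 leukocyte markers (PTPRC, TYROBP, CD3E, CD52 and LYZ) had 0 counts and CD79A had 3. In shNC PTPRC and TYROBP had 1 count each, and CD79A had 4. BCL2A1 (ENSG00000140379) lies on chromosome 15, and no other gene of the tables overlaps it. The nearest genes with at least 10 counts on either side were C15orf37, with 18 counts in shMBD2 and 20 in shNC, and ZFAND6, with 1933 and 1855, so neither neighbour shared the difference.

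BIRC3, the TNF receptor-associated ubiquitin ligase cIAP2, had 2274 counts in shMBD2 and 704 in shNC. Its level was 76.5 TPM (73.4 to 79.7) in shMBD2 and 24.3 TPM (22.5 to 26.2) in shNC. The log2FC was 1.68 (interval 1.56 to 1.81), a ratio of 3.21, and it ranked 403 among all genes compared and 62 in the set with a higher count of 100 or more. Its close relative and neighbour BIRC2 (cIAP1) had 1042 counts in shMBD2 and 943 in shNC, or 44.7 and 41.5 TPM, with a log2FC of 0.14 (interval 0.0067 to 0.26). The intervals of the log2FC of BIRC2 and BIRC3 do not overlap. The order of the pair was thus turned over: the BIRC3 level was 0.585 times that of BIRC2 in shNC and 1.71 times in shMBD2. Of the summed TPM of BIRC2 and BIRC3, BIRC3 made up 36.9% in shNC and 63.1% in shMBD2. BIRC3 (ENSG00000023445) and BIRC2 (ENSG00000110330) follow each other on the plus strand of chromosome 11, from 102317450 to 102339403 and from 102347211 to 102378670 in GENCODE 29 (GRCh38). Beyond them, YAP1 had 1465 and 1708 counts (log2FC -0.23) and TMEM123 had 7844 and 8464 (log2FC -0.12), so that within this stretch of 4 genes BIRC3 was the gene past a log2FC of 1.

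The promoters of BIRC3 and BIRC2 are shown because these neighbours differed in response, that of BCL2A1 because its ratio was the highest of the 10 genes, and that of CFLAR because it held the other match. The windows run from 250 bases before the RefSeq start to 50 after it (GRCh38.p14), 5′ to 3′ on the strand of the gene, and capitals mark matches to the 10-base NF-kB consensus on either strand. They are BIRC3 at chr11:102317234-102317533 (plus strand), BIRC2 at chr11:102346964-102347263 (plus strand), BCL2A1 at chr15:79971147-79971446 (minus strand) and CFLAR at chr2:201118466-201118765 (plus strand).
BIRC3: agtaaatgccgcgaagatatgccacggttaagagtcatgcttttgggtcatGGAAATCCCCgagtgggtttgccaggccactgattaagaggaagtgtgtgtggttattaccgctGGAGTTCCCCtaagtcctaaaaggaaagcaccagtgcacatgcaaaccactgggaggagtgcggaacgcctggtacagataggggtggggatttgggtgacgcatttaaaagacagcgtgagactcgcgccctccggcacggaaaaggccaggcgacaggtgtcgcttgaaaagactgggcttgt
BIRC2: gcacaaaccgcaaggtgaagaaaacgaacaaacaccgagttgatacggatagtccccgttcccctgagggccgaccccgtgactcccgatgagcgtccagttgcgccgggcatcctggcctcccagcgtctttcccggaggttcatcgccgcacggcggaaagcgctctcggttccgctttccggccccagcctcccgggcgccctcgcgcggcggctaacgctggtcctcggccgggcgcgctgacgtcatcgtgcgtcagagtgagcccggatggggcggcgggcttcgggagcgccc
BCL2A1: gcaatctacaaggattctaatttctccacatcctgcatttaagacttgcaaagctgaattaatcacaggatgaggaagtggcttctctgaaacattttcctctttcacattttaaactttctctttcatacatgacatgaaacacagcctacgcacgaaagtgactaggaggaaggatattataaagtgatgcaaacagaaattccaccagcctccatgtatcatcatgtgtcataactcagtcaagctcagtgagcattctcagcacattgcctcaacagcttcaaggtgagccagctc
CFLAR: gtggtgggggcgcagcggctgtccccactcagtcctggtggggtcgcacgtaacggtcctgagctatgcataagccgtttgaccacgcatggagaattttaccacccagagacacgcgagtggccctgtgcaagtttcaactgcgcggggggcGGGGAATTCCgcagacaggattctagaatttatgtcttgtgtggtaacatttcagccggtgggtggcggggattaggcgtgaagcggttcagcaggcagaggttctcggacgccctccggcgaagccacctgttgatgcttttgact

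RefSeq windows were found for 9 of the 10 genes, 16 windows in all, and MCL1 was not among them. The BIRC3 window held 2 matches to the NF-kB consensus, GGAAATCCCC beginning 199 bases before the start and GGAGTTCCCC beginning 135 bases before it. The first CFLAR window held 1, GGGGAATTCC beginning 97 bases before the start. The windows of the other 7 genes, including that of BCL2A1, held none. Of all 35116 windows of this length, 11.3% held at least 1 match and 2.04% held 2 or more. Counted per gene, 13.3% of 27305 genes had a window with a match. The 2 of 9 genes found here are too few to be told from that share. A search for the 10-base p53 half-site consensus found 0 matches in the windows of the 9 genes, against 6.63% of all windows and 8.06% of genes. A match describes the letters only, and its absence says nothing of sites outside the window. The windows also differed in CpG, the dinucleotide that MBD2 reads when it is methylated. There were 15 CpG in the BIRC3 window and 2 in that of BCL2A1, which have 1 window each. The printed BIRC2 window held 40 and its other window 44. The printed CFLAR window held 21, and the other 3 CFLAR windows held 0, 1 and 22. Among the windows not printed, that of BBC3, with a log2FC of 0.048, held 5 CpG. Those of BCL2L11 and PMAIP1 held 39 and 42. The BCL2L1 windows held 20 and 16, and the XIAP windows 10, 27 and 17. A low count was thus not particular to BCL2A1 and BIRC3. The median over all windows was 14, and 18.2% of all windows held 2 or fewer and 52.5% held 15 or fewer. Methylation was not measured in these libraries.

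**Figure D2:**
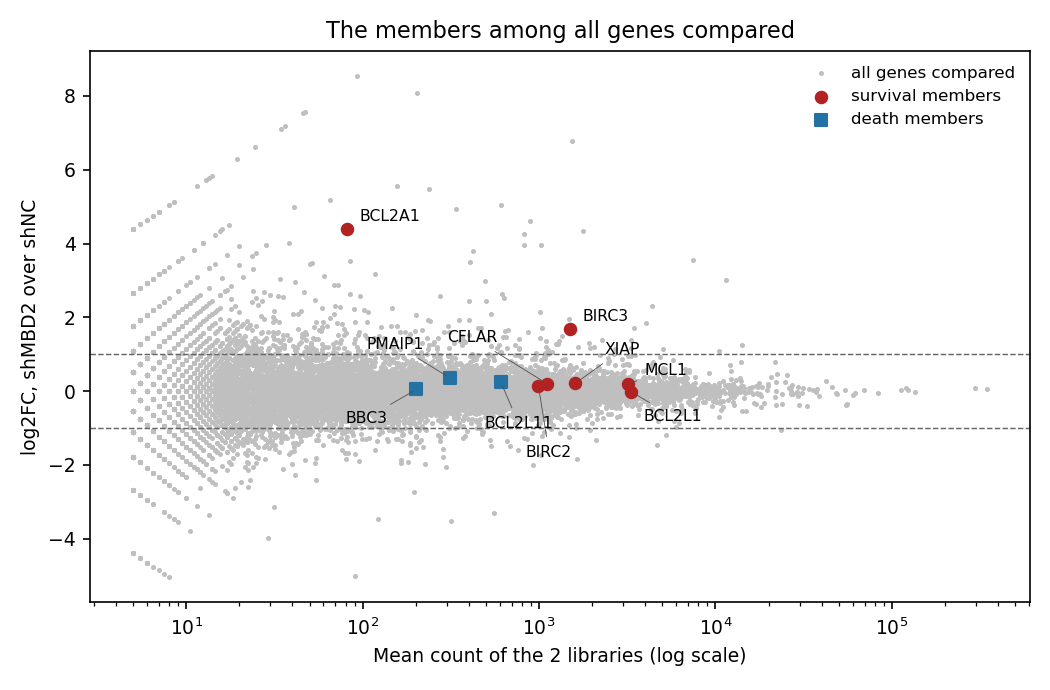
Log2FC of shMBD2 over shNC against the mean count of the libraries (log scale) for the 17545 genes compared, with the 7 survival genes as circles, the 3 death genes as squares and dashed lines at 1 and -1. BCL2A1 at 4.38 and BIRC3 at 1.68 lie above the upper line, and the other 8 genes lie within the band of genes near 0.

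Among the remaining survival genes of the BCL2 family, BCL2L1 was the most abundant of the 10 genes in both libraries. It had 3318 counts in shMBD2 and 3336 in shNC, or 222 and 229 TPM, and a log2FC of -0.017 (interval -0.086 to 0.053). This interval includes 0, and a difference beyond 0.086 in either direction lies outside it. MCL1, a short-lived survival protein, had 3434 and 2972 counts, or 153 and 136 TPM. Its log2FC was 0.20, and the counting interval of 0.13 to 0.27 lay wholly above 0. Of the summed TPM of BCL2L1, MCL1 and BCL2A1, BCL2A1 made up 0.332% in shNC and 6.62% in shMBD2. The part of BCL2L1 was 62.6% in shNC and 55.4% in shMBD2. BCL2A1, with the highest ratio, therefore remained the smallest part of this pool.

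The other inhibitors of caspase activation were slightly higher in shMBD2. XIAP had 1733 counts in shMBD2 and 1486 in shNC, or 35.3 and 31.0 TPM, with a log2FC of 0.21 (interval 0.11 to 0.31). CFLAR had 1194 and 1035 counts, or 14.2 and 12.7 TPM, with a log2FC of 0.20 (interval 0.076 to 0.32). CASP8, whose product CFLAR restrains and whose gene lies in the same cluster on chromosome 2, had 1096 and 931 counts and a log2FC of 0.23 (interval 0.099 to 0.35). The ratio of the CFLAR level to the CASP8 level was 0.218 in shMBD2 and 0.222 in shNC. CASP10, the gene next to CFLAR, had 166 and 138 counts and a log2FC of 0.26 (interval -0.077 to 0.59). The antisense gene CFLAR-AS1, which overlaps CFLAR, had 9 counts in each library. How reads in the overlap were assigned is not known, because the strandedness of counting is not given. RP11-243J16.7, which overlaps BCL2L1, had 4 counts in shMBD2 and 6 in shNC.

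The 3 death genes lay in the same narrow band. PMAIP1 had 353 counts in shMBD2 and 275 in shNC, or 31.7 and 25.3 TPM, with a log2FC of 0.35 (interval 0.12 to 0.58). BCL2L11 had 661 and 554 counts, or 22.7 and 19.5 TPM, with a log2FC of 0.25 (interval 0.081 to 0.41). BBC3 had 206 and 198 counts, or 19.6 and 19.3 TPM, and its log2FC of 0.048 had an interval across 0, from -0.24 to 0.34. Counting intervals of the log2FC lay wholly above 0 for 8 of the 10 genes and wholly below 0 for 0. This was so for 19.7% and 18.4% of all genes compared. In the set with a higher count of 100 or more, whose intervals are narrower, 25.4% had an interval wholly above 0. These shares describe counting error and not how cultures of 1 group vary.

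Levels per length placed the 10 genes in a similar order in both libraries, apart from BIRC3 and BCL2A1. In shNC the order from the highest was BCL2L1, MCL1, BIRC2, XIAP, PMAIP1, BIRC3, BCL2L11, BBC3, CFLAR and BCL2A1. In that library the counting intervals of PMAIP1 and BIRC3 overlapped, as did those of BCL2L11 and BBC3, and those of the other neighbours in the order did not. In shMBD2 BIRC3 was in place 3 and BCL2A1 in place 7. From XIAP downwards, through PMAIP1, BCL2A1, BCL2L11 and BBC3, each gene overlapped the next, and CFLAR was the lowest.

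Survival and death genes were then compared as sums. The 7 survival genes summed to 572 TPM (counting SE 5.62) in shMBD2 and 476 TPM (5.06) in shNC, a log2FC of 0.27. The 3 death genes summed to 74.0 TPM (2.34) and 64.2 TPM (2.22), a log2FC of 0.21. The ratio of survival to death genes was 7.73 in shMBD2 and 7.41 in shNC, and the difference of 0.062 between the log2FC of the sums was smaller than its counting SE of 0.071. The medians lay in the other order, at 0.20 for the survival genes and 0.25 for the death genes. BIRC3 and BCL2A1 accounted for 80.2% of the difference in the survival sum, and without them its log2FC was 0.060. Without BCL2L1, the most abundant gene, the log2FC of the survival sum was 0.51 (counting SE 0.025), against 0.21 (0.068) for the death sum. The closeness of the sums thus rests on BCL2L1. Without PMAIP1, the most abundant death gene, the log2FC of the death sum was 0.12 (counting SE 0.081). The 3 IAP genes, BIRC2, BIRC3 and XIAP, summed to 157 TPM in shMBD2 and 96.9 TPM in shNC, or 27.3% and 20.4% of the survival sum.

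**Figure D3:**
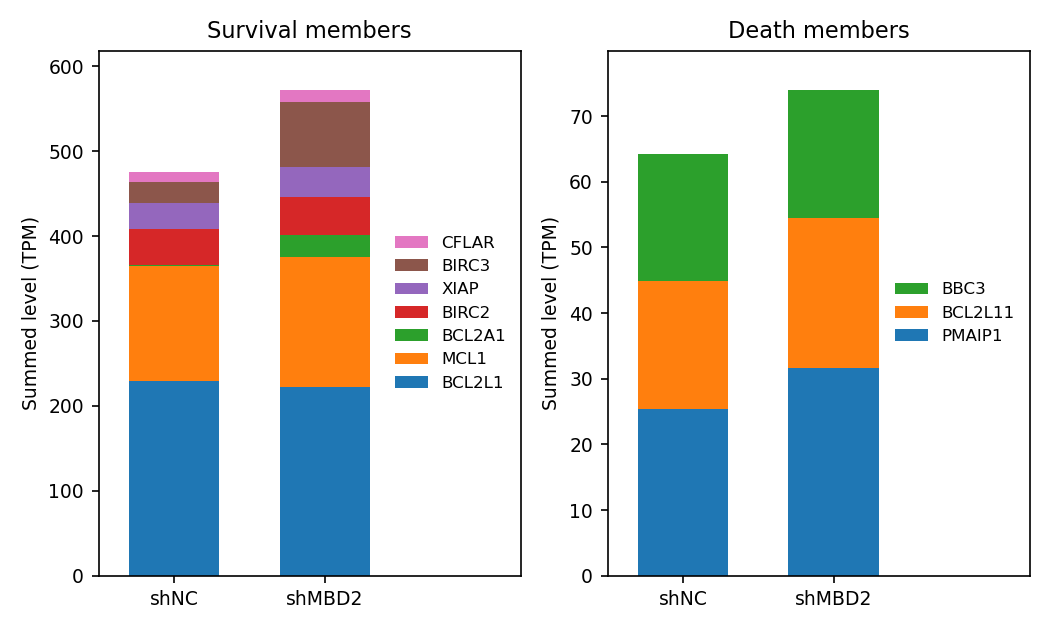
Stacked TPM of the 7 survival genes (left) and the 3 death genes (right) in each library, on separate linear axes that start at 0. The survival stack grows from 476 to 572 TPM mainly through BIRC3 and BCL2A1, and the death stack from 64.2 to 74.0 TPM with all 3 genes at least as high in shMBD2.

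The rest of the pathway was taken from 7 lists of 38 genes, of which 35 had at least 10 counts. A log2FC above 1 was found for 1 of these 35 genes and below -1 for 1, against 5.48% and 5.07% of all genes compared. The median over the 35 genes was 0.18. The gene above 1 and the gene below -1 both belonged to the BH3-only list. BIK, a BH3-only protein of the endoplasmic reticulum, had 32 counts in shMBD2 and 6 in shNC, or 5.87 and 1.13 TPM, and a log2FC of 2.31 (interval 1.13 to 3.95). HRK, a BH3-only protein best known from neurons, had 2 counts in shMBD2 and 18 in shNC, a ratio of 9.06 in favour of shNC (interval 2.17 to 80.5). BID, which carries the death receptor signal to mitochondria once caspase-8 has cut it, lay just inside the limit and had far more reads, with 976 and 491 counts, 68.5 and 35.3 TPM and a log2FC of 0.98 (interval 0.82 to 1.14). BNIP3, a mitochondrial protein known for mitophagy, had the highest mean level of the list, at 143 and 115 TPM (log2FC 0.35). The median log2FC over these 7 genes was 0.35.

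The members are a part of the BCL2 family, and sums over it depend on the genes included. Of the other anti-apoptotic genes, BCL2L2 (BCL-w) had 483 counts in shMBD2 and 676 in shNC, with a log2FC of -0.49 (interval -0.67 to -0.32), BCL2 had 58 and 79 counts, with an interval across 0, and BCL2L10 had 3 and 0. With these genes and the other BH3-only genes included, BNIP3 and BNIP3L left out, the 6 anti-apoptotic genes summed to 427 TPM in shMBD2 and 402 TPM in shNC. The 8 BH3-only genes summed to 161 and 110 TPM. Over these genes, the ratio of anti-apoptotic to BH3-only genes was 2.65 in shMBD2 and 3.65 in shNC. The log2FC of the sums differed by -0.46 (counting SE 0.056). BID alone went from 35.3 TPM in shNC to 68.5 TPM in shMBD2, within a BH3-only difference of 51.0 TPM. The omitted BNIP3 (143 TPM in shMBD2 and 115 in shNC) and BNIP3L (87.3 and 90.9) each exceed any gene of the BH3-only sum. The ratio with them included was not computed. Among the members alone, the 3 survival genes of the BCL2 family over the 3 death genes gave 5.43 in shMBD2 and 5.70 in shNC. The log2FC of these sums was 0.13 (counting SE 0.026) for the survival genes and 0.21 (0.068) for the death genes. The ratio was thus higher in shMBD2 with the IAP genes and CFLAR on the survival side, and lower without them. Both differences are about as small as their counting error, so neither direction is resolved.

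Of the pore-forming effectors, BAX had 1130 counts in shMBD2 and 1144 in shNC (log2FC -0.027) and was the most abundant, at 146 and 151 TPM. The median over BAX, BAK1 and BOK was 0.11, with 0 genes past 1 or -1. The 7 caspases all had a log2FC above 0, with a median of 0.23, and 0 were past 1. CASP8 had the highest mean level of them, at 65.4 TPM in shMBD2 and 57.0 TPM in shNC. Of the 4 other genes with a BIR domain, the fold shared by the IAPs, 3 were below 0 and the median was -0.20. BIRC6, the most abundant, had 3770 and 4185 counts (log2FC -0.16). NAIP had 10 and 13 counts, and since it lies among near-identical copies its reads could be split. For the IAP antagonists and apoptosome genes the median was 0.10, and CYCS, the cytochrome c gene, had 4804 and 4559 counts (log2FC 0.067). XAF1, an antagonist of XIAP, had 9 counts in shMBD2 and 0 in shNC. It fell under the limit of 10 counts, and the counting interval of its log2FC began at 0.97. The median of the death receptor adaptors was 0.28 over 8 genes, from -0.050 for RIPK1 to 0.71 for TRAF1, an adaptor that binds BIRC2 and BIRC3. TRAF2, with the highest mean level of that list, had 546 and 479 counts (log2FC 0.18), and RIPK3, the kinase of necroptosis, had 0 counts in both libraries.

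**Figure D4:**
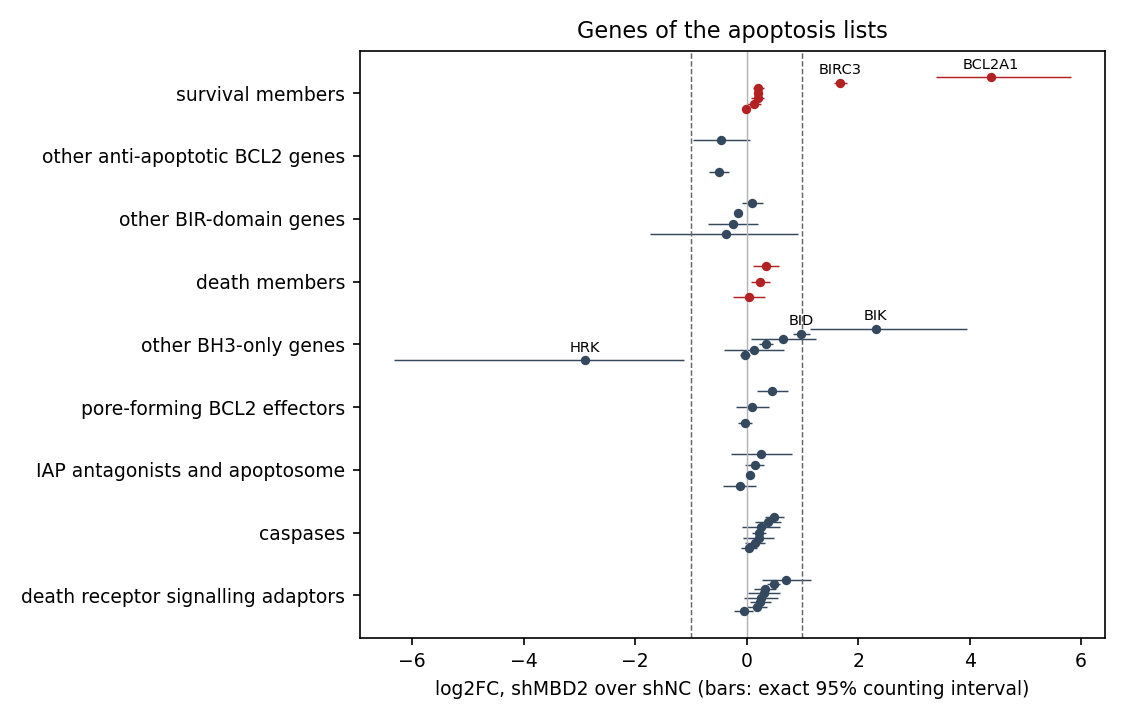
Log2FC of shMBD2 over shNC for the 10 genes (red) and the 35 genes of the pathway lists with at least 10 counts (dark), with bars for the exact 95% counting interval and dashed lines at 1 and -1. BCL2A1, BIRC3 and BIK lie above 1, BID lies just below it at 0.98, and HRK lies below -1 with a wide bar.

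The nearest genes with at least 10 counts on each side of the 10 genes, and the genes that overlap them, gave 20 neighbours beyond the members themselves. Their median log2FC was 0.021, and 2 of the 20 were above 1 and 0 below -1. Of all genes compared, 5.48% were above 1 and 5.07% below -1, and so small a set cannot be told from these shares. The neighbours above 1 were ADAMTSL4, next to MCL1, with 145 counts in shMBD2 and 47 in shNC (log2FC 1.61, interval 1.13 to 2.12), and CCBE1, next to PMAIP1, with 43 and 7 (log2FC 2.53, interval 1.45 to 4.01). Neither was a neighbour of BCL2A1 or BIRC3. The tables listed 11 genes that overlap a member, and none of these had more than 9 counts in a library.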

How the data were processed

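The authors deposited a table of read counts per gene, without normalization, and a table of TPM, treated here as a score per gene, for 1 shMBD2 and 1 shNC library of total RNA. The submitters' processing notes name fastp, HISAT2 2.1.0, featureCounts, DESeq 1.18.1 and GRCh38.p13. Annotation and strandedness of counting are not given in the sources used here. The coordinates in the tables differ from GRCh38 starts for all 10 members, so they served only to find neighbours.

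From 63677 rows with an Ensembl identifier, 1 row per symbol and value was kept, leaving 56638 genes. Over these the TPM sum to 1000000 in each library. Log2FC used TMM factors of edgeR 4.0.16 (R 4.3.3), a prior of 0.5 counts and the 17545 genes whose counts summed to 10 or more. Intervals are exact Clopper-Pearson (log2FC) or exact Poisson (levels) at 95%, with scipy 1.17.1. Called means a log2FC past 1 or -1. A count of 0 allows up to 3 counts, or 0.204 CPM in shMBD2 and 0.207 CPM in shNC. Reads without molecular identifiers are not independent molecules, so intervals cover counting error only. The scripts were tested on simulated data. Named genes were the 10 members, MBD2, genes with at least 10 counts that overlap a member, and of each pathway list those past 1 or -1 and the most abundant. BID, BCL2, BCL2L10, NAIP, XAF1, RIPK3, CASP10, the ends of ranges, the single markers and the neighbours were named after their values were seen. Members and lists were chosen with earlier results of these data known. Promoters came from RefSeq (GRCh38.p14) and gene spans from GENCODE 29. Alternatives were DESeq2 1.42.0 size factors, total counts, upper-quartile factors, log2 of TPM plus 0.1 or 1, priors of 2 and 0.1 counts, and limits of 1 and 100 counts.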

Additional observations from a re-analysis of the deposited data

How the results depend on the processing

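Of the 10 members, 9 kept the sign of their log2FC under all 10 alternatives, and no value moved by more than its counting interval. The limits of 1 and 100 counts change only which genes are compared. All 10 members pass both, so these limits could not alter a member's value or the count of members above 1. BCL2A1 ranged from 3.64 to 4.46 and BIRC3 from 1.62 to 1.70, and the count of members above 1 was 2 under each. BCL2L1, whose interval includes 0, ranged from -0.045 to 0.00074, with the change of sign when all deposited rows were kept, an alternative chosen after seeing the data. MBD2 ranged from -1.50 to -1.45. For the pathway lists, the counts of 1 gene above 1 and 1 below -1 were 3 above with at least 1 count, 0 above and 0 below with at least 100 counts, and 0 below with log2 of TPM plus 1. The log2FC of the summed survival genes, 0.27 with TPM, was 0.32 with normalized counts, 0.51 without BCL2L1, and 0.060 without BCL2A1 and BIRC3, the last chosen after seeing the data. The log2FC of the summed death genes, 0.21 with TPM, was 0.24 with normalized counts and 0.12 without PMAIP1. The median of all genes compared lay between -0.033 and 0.0085 under every setting. No paired analysis was possible because each group has 1 library. Over all genes compared, 961 were above 1 and 890 below -1, against 4523 and 4303 with at least 1 count, 213 and 127 with at least 100, and 374 and 340 with log2 of TPM plus 1. Leaving out a replicate was likewise not possible. Depth limits BCL2A1 in shNC, BIK and HRK, which had under 20 counts in a library.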

Other observations

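The deposited tables carry a pathway annotation of each gene, which was read for 3 further descriptions after the values of the members were known. All 10 members were among the 130 genes annotated with apoptosis. Of the other 120, 106 had at least 10 counts, with a median log2FC of 0.13. Of these 106, 6 were above 1 and 2 below -1, against 5.48% and 5.07% of all genes compared. Those below were HRK and GADD45B, a stress-induced gene, with 155 counts in shMBD2 and 392 in shNC (log2FC -1.34, interval -1.63 to -1.08). Those above with at least 100 counts in a library were CTSS, NFKB1 and NFKBIA. CTSS, a lysosomal protease, had 922 and 331 counts (log2FC 1.47). NFKB1, an NF-kB subunit, had 1071 and 473 (log2FC 1.17). NFKBIA, an inhibitor of NF-kB, had 1870 and 723 (log2FC 1.36). The highest log2FC of the 106 genes was 5.78, for TNF, which did not reach 100 counts. Of all genes with a higher count of 100 or more, 1.62% were above 1.

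Platinum drug resistance was annotated to 68 genes, among them BCL2L1, BIRC2, BIRC3, XIAP, BBC3 and PMAIP1. Of the 52 other genes with at least 10 counts, 0 were past 1 or -1, and their median log2FC was 0.062. They ranged from -0.49 for ATP7A, a copper transporter, to 0.98 for BID. BIRC3, at 1.68, was thus the 1 gene of this annotation past a log2FC of 1, and its value was known before the annotation was read. Of all genes compared, 5.48% were above 1 and 5.07% below -1. In the set with a higher count of 100 or more, 1.62% were above 1, so 1 such gene does not set this annotation apart.

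Necroptosis was annotated to 149 genes, among them BIRC2, BIRC3, CFLAR and XIAP. Of the 112 other genes with at least 10 counts, 10 were above 1 and 1 below -1, against 5.48% and 5.07% of all genes compared. The median log2FC of these 112 genes was 0.085. Those above with at least 100 counts in a library were TNFAIP3, IFNGR1 and STAT5A. TNFAIP3, a brake on NF-kB signalling, had 1571 counts in shMBD2 and 81 in shNC (log2FC 4.26). IFNGR1, an interferon gamma receptor chain, had 2340 and 604 (log2FC 1.94). STAT5A, a transcription factor, had 117 and 23 (log2FC 2.31). TNF was again the highest, at 5.78, and did not reach 100 counts. Of all genes with a higher count of 100 or more, 1.62% were above 1.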
